A study of Mus musculus with 3 samples.

Results

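The nucleoporins, importins and exportins are the proteins that build the nuclear pore and carry proteins and RNA through it. Their transcripts were taken from the platform annotation by symbol: a probe set had to name a single gene, and that symbol had to begin with Nup and a digit, Kpna, Kpnb, Xpo with a digit or t, Ipo with a digit, or Tnpo with a digit. The rule found 42 genes on 111 probe sets, among 18193 genes with such a probe set. Of these, 19 were nucleoporins and 23 were importins or exportins. The probe set with the highest mean intensity over the arrays stands for each gene. The RNA was from helper T cells of memory phenotype (CD4+, cells that have met antigen before), which were sorted from the spleens of mice labelled BALB/c. The normal diet group (ND) held 1 array and the high fat diet group (HFD, 60 kcal% fat) held 2, and both diets ran for 10 weeks. No genetic change or other agent is named for either group, and the mice's age and sex and any pooling of mice are not given in the labels. Whether separate mice gave the HFD samples is not in the labels either, and the spread behind the p-values may therefore be technical.

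The nuclear pore is a ring-shaped channel through the nuclear envelope. Its outer rings are built from the Y-shaped Nup107-Nup160 complex, its inner ring holds the centre, and nucleoporins rich in phenylalanine-glycine repeats fill the passage. Importin alpha proteins bind a nuclear localisation signal and dock on importin beta, other members of the importin beta family bind cargo directly, and exportins carry cargo out together with Ran in its GTP-bound form. In lymphocytes this traffic carries transcription factors, histones and ribosomal proteins into the nucleus, and ribosomal subunits, transfer RNA and messenger RNA out of it.

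The arrays were first set against their labels. All 9 measured T cell markers passed the filter on low values used below, among them Cd3d, a chain of the T cell receptor complex, at 22920 on ND and 19830 and 19520 on HFD, and Cd4 at 910.8, 608.6 and 377.0. The T cell list summed to 101800 on ND and to 82110 and 77940 on HFD, and 8 of its 9 genes fell. Among these 8 was Cd44, a marker of the memory phenotype, at 9761 on ND and 5623 and 5700 on HFD. Among lists of other cells, B cell markers summed to 1488 on ND and to 2704 and 2762 on HFD (1 gene called higher and 1 lower of 4 past the filter, with Ms4a1 at 56.78, 1612 and 1837), CD8 T and NK cell markers to 1226, 1713 and 1940 (3 higher of 5), macrophage markers to 2441, 899.2 and 1079 (5 lower of 6), dendritic cell markers to 1915, 783.1 and 885.0 (4 lower of 5) and neutrophil markers to 982.7, 910.7 and 932.4 (2 higher, 1 lower of 4). Of the measured markers on these lists, 0 lay under 17.65 on all arrays. The 3 measured erythroid markers, of which 0 passed the filter, summed to 68.32, 82.63 and 29.74. Proliferation genes summed to 38650, 70450 and 75430, with 10 of 15 higher and Mki67, a marker of cycling cells, lower (2092, 1610 and 1440). H2-Ea, a class II histocompatibility gene that mice of some inbred strains do not transcribe, read 11.49 on ND and 536.3 and 601.7 on HFD. BALB/c mice can transcribe this gene, chiefly in antigen-presenting cells, and its reading was near the floor on the only ND array. There, macrophage and dendritic cell markers summed higher than on HFD. B cell markers summed lower there, a gap that came from Ms4a1. The other B cell genes past the filter read higher on ND than on HFD: Cd22 (939.3, 604.8 and 504.4), Cd79b (219.3, 189.6 and 168.1) and Fcrla (105.7, 93.24 and 56.61). Those that did not pass went both ways. Whether the ND sample was of the labelled strain, and whether its cell makeup set the H2-Ea reading, was not tested. Every comparison below rests on the ND array. The ratio of 3′ to 5′ signal of the Actb control probe sets was 1.29 on ND and 1.27 and 1.34 on HFD, and that of Gapdh was 0.723, 0.681 and 0.706. The part of other cells, of proliferation and of strain in the results below was not tested. In bulk samples, fewer cells of a type and less RNA per cell cannot be told apart.

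Transcripts of the nuclear transport machinery were broadly higher in HFD. Of the 42 members, 40 passed the filter on low values, a mean intensity above 71.4. Of these 40, 28 rose and 0 fell, against 20.5% of all 10341 genes tested that rose and 29.2% that fell. Calls in either direction were made for 49.6% of all genes. The remaining 12 members were not called. Among the 5 with a negative difference the unadjusted p was 0.16 or more, so 0 were lower at an unadjusted p under 0.05. Calls are from limma's moderated test, two-sided, at an adjusted p under 0.05 over all genes tested. The median member lay 0.56 above ND on the log2(intensity + 17.65) scale, whereas the median gene lay at -0.15, so the members' median was 0.71 above that of all genes. On HFD 1 the members' median difference was 0.52 and on HFD 2 it was 0.61.

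Both HFD arrays read above ND for 35 of the 40 members, against 35.8% of all genes tested, and both read below ND for 5, against 54.7%. A total of 19 members were at least 1.5-fold higher on both HFD arrays (12.7% of all genes) and 0 were at least 1.5-fold lower on both (14.9% of all genes). At the stricter size of 2-fold, 10 members were higher on both (6.0% of all genes) and 0 lower (2.60%). HFD 2 read above HFD 1 for 34 of the 40 members (50.6% of all genes tested) and lay farther from ND than HFD 1 did for 37 (65.4% of all genes tested). The median distance between the HFD arrays over the members was 0.113, against 0.524 and 0.613 between ND and the HFD arrays. Nup210l and Kpna7 did not pass the filter: Nup210l read 7.264 on ND and 35.84 and 8.991 on HFD, and Kpna7, an importin alpha of the oocyte, read 5.586, 15.73 and 3.510.

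**Figure D1:**
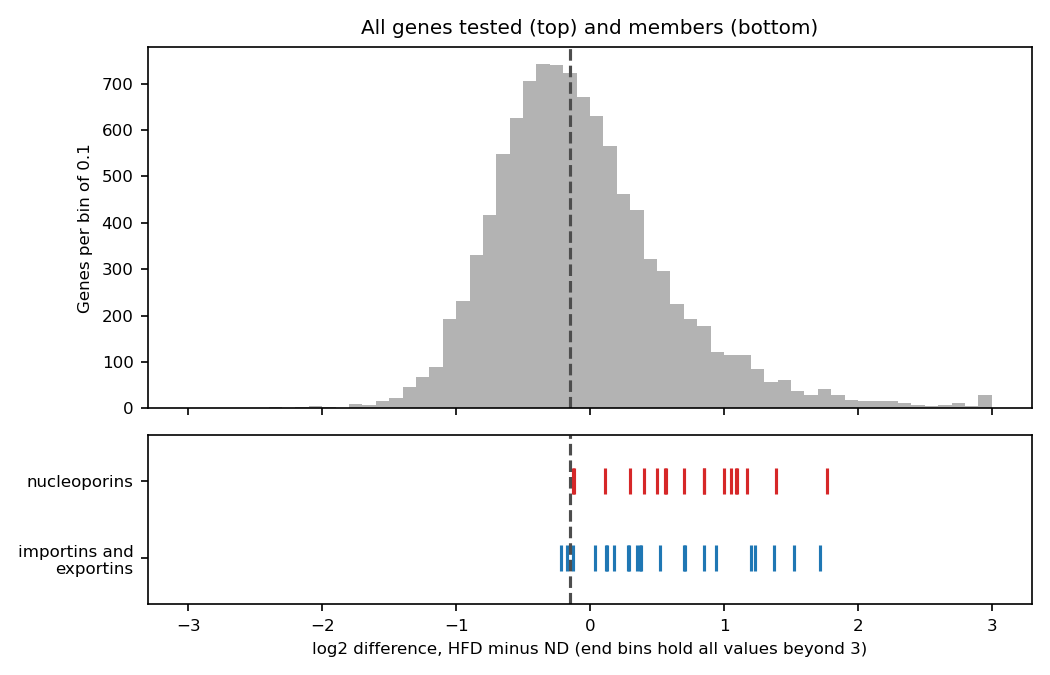
Top, histogram of the log2 difference (HFD minus ND, fitted value) for the 10341 genes tested in bins of 0.1; bottom, each nucleoporin (18) and each importin or exportin (22) past the filter as a tick; the dashed line is the median of all genes at -0.15. The ticks run from -0.22 to 1.77, and most lie to the right of the dashed line.

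The promoters of several of these genes are shown for description, and whether their motifs bear on the difference between the diets was not tested. RefSeq promoter windows (GRCm38.p6) were matched by symbol for 33 of the 40 members, and the 250 bases before the start were searched on both strands for 5 motifs known from promoters of growth and housekeeping genes. CACGTG, the E-box core bound by MYC among other factors, was present in 6 of 33 members (18.2%), in 6.86% of all 27025 genes with a window and in 10.2% of the 8441 tested genes with a window. The NRF1 palindrome of 10 bases (in capitals in Nup62 and Nup107 below) was present in 4 of 33 members (12.1%), in 0.877% of all genes and in 2.09% of tested genes. CCAAT was present in 17 members (51.5%, against 37.5% of all and 40.7% of tested genes), CCGGAAG, an ETS site, in 6 (18.2%, against 7.83% and 17.2%) and GGGCGG, an SP1 site, in 23 (69.7%, against 35.4% and 64.5%). CACGTG and the NRF1 palindrome read the same on both strands, no motif contains another, and a gene with several windows was counted once if any window held the motif. These matches are descriptions of letters in a window and not measured sites.

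Among the members that rose, 5 of 23 with a window held CACGTG (21.7%), and among those not called 1 of 10 did (10.0%). For the NRF1 palindrome the counts were 3 of 23 (13.0%) and 1 of 10 (10.0%), and neither difference in share was tested. The 6 promoters below, chosen after their values were seen, are from members that rose. They hold CACGTG in Ipo7 (chr7:110018065-110018314, plus strand), Nup54 (chr5:92435200-92435449, minus strand) and Nup93 (chr8:94214314-94214563, plus strand, 1 of its 2 windows). The NRF1 palindrome is held by Nup62 (chr7:44815838-44816087, plus strand) and Nup107 (chr10:117792706-117792955, minus strand), and CCAAT lies in Kpna2 (chr11:106999526-106999775, minus strand). Each is written 5′ to 3′ in the gene's direction and ends at the base before the start, with the named motif in capitals.
Ipo7: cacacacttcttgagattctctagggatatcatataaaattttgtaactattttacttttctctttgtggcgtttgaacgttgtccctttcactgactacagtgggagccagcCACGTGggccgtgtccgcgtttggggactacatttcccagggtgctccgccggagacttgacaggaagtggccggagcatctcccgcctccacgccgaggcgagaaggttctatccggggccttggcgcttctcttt
Nup54: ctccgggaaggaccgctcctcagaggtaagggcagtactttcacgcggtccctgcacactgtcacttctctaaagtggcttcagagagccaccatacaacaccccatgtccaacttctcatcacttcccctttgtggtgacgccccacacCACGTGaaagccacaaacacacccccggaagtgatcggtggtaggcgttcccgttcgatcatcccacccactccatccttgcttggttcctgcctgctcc
Nup93: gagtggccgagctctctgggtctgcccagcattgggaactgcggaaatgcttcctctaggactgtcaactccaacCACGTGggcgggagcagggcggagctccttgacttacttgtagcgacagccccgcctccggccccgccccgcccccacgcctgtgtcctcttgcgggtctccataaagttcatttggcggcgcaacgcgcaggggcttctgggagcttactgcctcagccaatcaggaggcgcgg
Nup62: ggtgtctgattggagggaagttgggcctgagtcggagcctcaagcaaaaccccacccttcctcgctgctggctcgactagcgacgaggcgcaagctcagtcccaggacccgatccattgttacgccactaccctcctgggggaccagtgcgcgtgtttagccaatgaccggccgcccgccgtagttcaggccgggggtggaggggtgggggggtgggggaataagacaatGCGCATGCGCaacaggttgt
Nup107: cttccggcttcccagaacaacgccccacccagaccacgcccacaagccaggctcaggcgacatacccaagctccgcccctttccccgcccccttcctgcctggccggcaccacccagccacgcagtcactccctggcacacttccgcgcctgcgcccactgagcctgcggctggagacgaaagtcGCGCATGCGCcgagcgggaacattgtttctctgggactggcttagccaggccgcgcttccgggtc
Kpna2: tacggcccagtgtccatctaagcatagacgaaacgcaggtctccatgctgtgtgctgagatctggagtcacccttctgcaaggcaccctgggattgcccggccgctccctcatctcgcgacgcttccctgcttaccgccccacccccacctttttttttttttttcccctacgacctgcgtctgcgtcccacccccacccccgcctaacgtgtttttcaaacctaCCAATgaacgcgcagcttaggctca

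In the outer ring, all 7 Y complex genes within the symbol rule rose, beside 20.5% of all genes tested. Their median difference was 1.09 (1.24 above all genes). Nup43, a beta-propeller subunit of the complex, read 327.9 on ND and 1108 and 1215 on HFD, 3.41-fold higher (log2 1.77 ± 0.15 SE, adjusted p = 1.07e-06). Nup133, which anchors the tail of the Y, read 641.6 on ND and 1609 and 1806 on HFD, 2.61-fold higher (log2 1.39 ± 0.14, adjusted p = 5.01e-06). The HFD values of both genes lay far above ND and close to each other. Nup85 of the short arm read 843.3, then 1738 and 1929 (2.15-fold), and Nup107 of the stem read 960.0, then 1927 and 2200 (2.12-fold). Nup37, a small propeller that sits beside Nup160, read 841.9, then 1722 and 1802 (2.07-fold). Nup160 itself read 1626 on ND and 2675 and 3237 on HFD, 1.80-fold higher. Of this group Nup98 rose least: it read 1555 on ND and 2067 and 2357 on HFD, 1.41-fold (log2 0.50 ± 0.13, adjusted p = 0.00596). Its transcript encodes a precursor cut into Nup98, a repeat nucleoporin, and Nup96, a Y complex subunit, and its call ended without a variance trend (adjusted p = 0.0595).

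All 4 measured inner ring genes rose as well, with a median of 0.78, beside 20.5% of all genes tested that rose. Nup93, the linker that holds the inner ring together, read 1140 on ND and 2355 and 2863 on HFD, 2.26-fold higher (log2 1.17 ± 0.14, adjusted p = 2.13e-05). Nup205, a large scaffold partner of Nup93, read 1674, then 3264 and 3448 (1.99-fold), but its second probe set, dimmer at 87.38, 108.6 and 93.80, gave a log2 difference of 0.18 and no call (adjusted p = 0.692). Nup155, a membrane-facing scaffold subunit, read 780.7 on ND and 1099 and 1220 on HFD (1.47-fold, adjusted p = 0.00537), and Nup188, a paralog of Nup205, read 292.7, 441.3 and 441.5 (1.48-fold, adjusted p = 0.0159, with the call lost at 0.0786 when no filter was applied). Nup54 and Nup62, repeat nucleoporins of the central channel, both rose: Nup54 from 2142 to 3677 and 4101 (1.81-fold, adjusted p = 6.65e-05) and Nup62 from 4421 to 6956 and 7477 (1.63-fold, adjusted p = 8.09e-05).

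Of the 5 genes within the symbol rule and past the filter at the periphery of the pore, 2 rose, beside 20.5% of all genes tested. Peripheral pore genes with other symbols are not among these 5. Nup88 of the cytoplasmic side read 1974 on ND and 2389 and 2494 on HFD, 1.23-fold higher (adjusted p = 0.0462), a call that ended under 5 of 10 alternatives, whereas Nup214, its partner, read 1068, 1108 and 1194 (log2 0.11 ± 0.14, adjusted p = 0.541). In the nuclear basket, Nup50, a cofactor of importin alpha release, read 1220, 1590 and 1632 (1.32-fold, adjusted p = 0.0201), with its other probe sets past the filter at log2 0.05 and 0.15. Nup153, the basket protein that binds importins at the nuclear face, read 8662 on ND and 7926 and 7905 on HFD (log2 -0.13 ± 0.09, adjusted p = 0.237). Both HFD arrays read below ND for Nup153, yet the gap was not called on the deposited scale. Quantile normalization made it a call lower (log2 -0.29, adjusted p = 0.0105), and its second probe set gave a difference of 0.00. A dimmer Nup153 probe set past the filter read 910.7 on ND and 637.7 and 462.1 on HFD (log2 -0.73). With probe sets averaged, Nup153 was not called (log2 -0.29, adjusted p = 0.0751). Nup210, the transmembrane nucleoporin, read 4539, 4196 and 4179 (log2 -0.12 ± 0.10, adjusted p = 0.363). Whether the peripheral genes differ from the ring genes as sets was not tested.

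**Figure D2:**
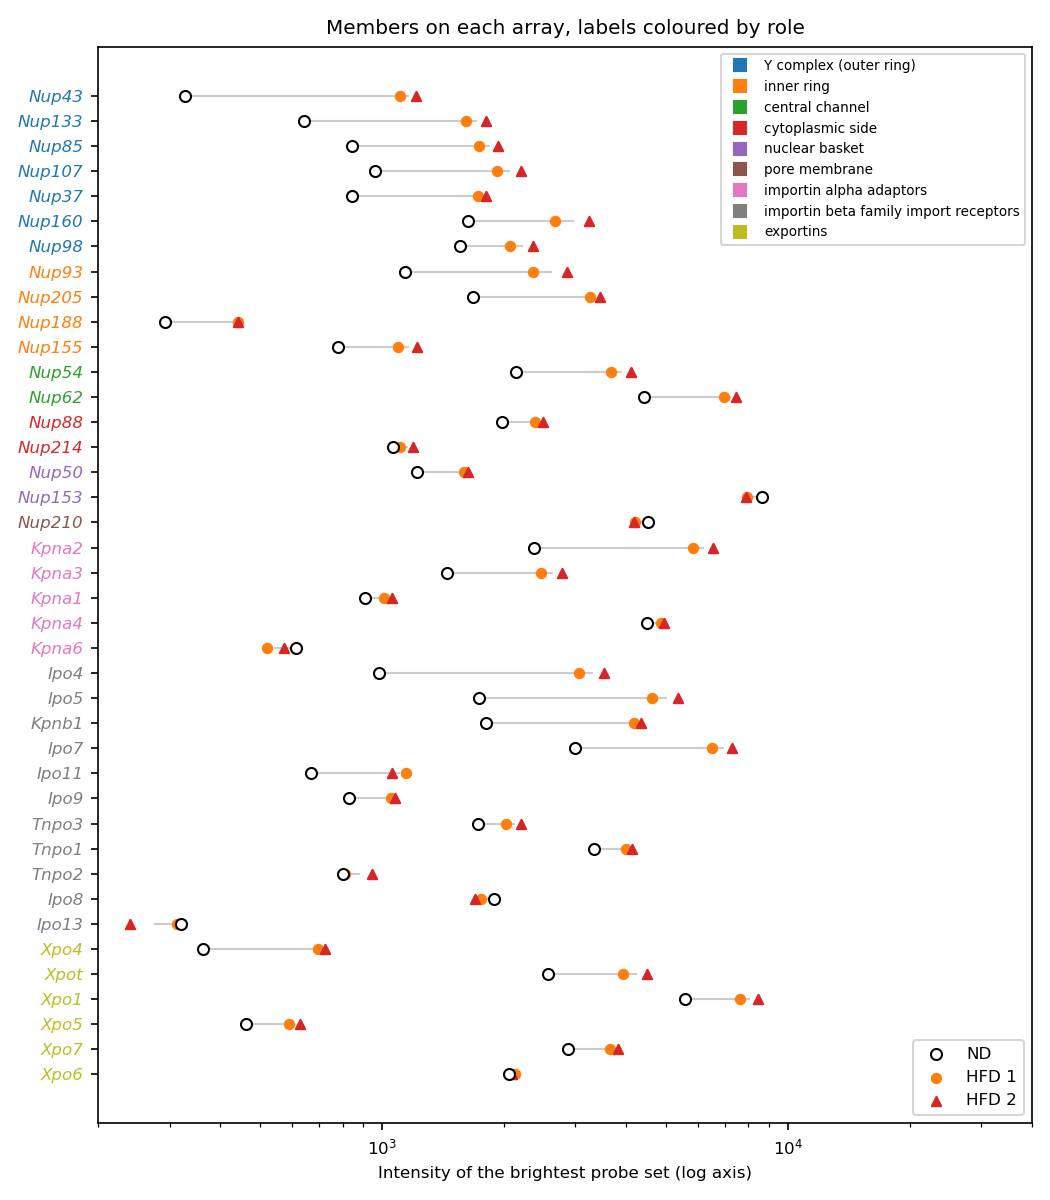
Intensity of the brightest probe set on a log axis for the 40 members past the filter, with ND as open circles, HFD 1 as orange circles and HFD 2 as red triangles; the grey line joins ND to the HFD mean and label colours give the role. The ND circle lies left of both HFD points for 35 members and right of both for Nup153, Nup210, Kpna6, Ipo8 and Ipo13.

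Of the 5 importin alpha adaptors past the filter, 2 rose and 0 fell, beside 20.5% and 29.2% of all genes tested. Kpna2, which carries classical localisation signals to importin beta, read 2374 on ND and 5831 and 6530 on HFD, 2.59-fold higher (log2 1.37 ± 0.11, adjusted p = 6.93e-07). Kpna3 read 1448, then 2469 and 2781 (1.80-fold, adjusted p = 0.000131), and its other probe sets past the filter also read higher on both HFD arrays. The adaptor Kpna4, a close paralog of Kpna3, read 4509, 4875 and 4968 (log2 0.13 ± 0.10, adjusted p = 0.313). Kpna2 and Kpna3 thus passed the test, and Kpna4 did not, although both of its HFD values exceeded ND. Kpna1 read 911.1, 1014 and 1059 (log2 0.18 ± 0.14, adjusted p = 0.287), with its 4 other probe sets at log2 0.05 to 0.88, and it was called higher when probe sets were averaged (log2 0.39, adjusted p = 0.0452). For Kpna6 the readings were 614.8 on ND and 519.7 and 574.0 on HFD (log2 -0.17 ± 0.16, adjusted p = 0.403), and its second probe set read the other way (log2 0.28).

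Of 11 import receptors of the importin beta family, 7 rose and 0 fell, beside 20.5% and 29.2% of all genes tested. On both HFD arrays, 4 of the 11 were at least 2-fold higher (6.0% of all genes tested). Ipo4, a receptor for histones and ribosomal proteins, read 985.0 on ND and 3056 and 3535 on HFD, 3.30-fold higher (log2 1.72 ± 0.13, adjusted p = 3.96e-07). A further probe set annotated to both Ipo4 and Tm9sf1, outside the rule, read 1575, 1496 and 1370. Ipo5, which imports ribosomal proteins and histones, read 1733, then 4644 and 5381 (2.87-fold, adjusted p = 6.07e-07). Kpnb1, importin beta itself, read 1805, then 4188 and 4349 (2.35-fold, adjusted p = 1.87e-06), and its 3 other probe sets past the filter gave log2 differences of 0.49, 0.95 and 1.34. Ipo7, a receptor for ribosomal proteins and linker histone, read 2993 on ND and 6522 and 7304 on HFD (2.30-fold, adjusted p = 1.73e-06). In each of these 4 genes the lower HFD value was more than 2-fold above ND.

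The other import receptors moved less or not detectably. Ipo11 read 670.8, 1145 and 1059 (1.63-fold, adjusted p = 0.00125), but its second probe set read 214.9 on ND and 163.9 and 97.32 on HFD (log2 -0.69), the only further probe set past the filter, among members that rose, with both HFD arrays below ND. Ipo9 read 832.2, 1051 and 1080 (1.27-fold, adjusted p = 0.0490). Tnpo1, transportin, which imports many RNA-binding proteins, read 3334, 4000 and 4132 (1.22-fold, adjusted p = 0.0381), while its second probe set, at 573.0, 1283 and 1409, gave a larger difference (log2 1.21). Tnpo3, which imports SR splicing factors, read 1724, 2026 and 2196 (log2 0.29 ± 0.12, adjusted p = 0.0674). It passed the threshold with arrays centred on the median (adjusted p = 0.0210), under the 75th percentile filter (0.0393) and with probe sets averaged (0.0165). Its other probe sets past the filter gave log2 0.40 and 0.73, and with the second brightest it was not called (adjusted p = 0.0537). Tnpo2, the paralog of Tnpo1, read 803.7, 812.5 and 948.2 (log2 0.12 ± 0.15). Ipo8 read 1888, 1756 and 1699 (log2 -0.13 ± 0.12, adjusted p = 0.411), and Ipo13, which both imports and exports cargo, read 320.1, 312.1 and 238.9 (log2 -0.22 ± 0.21, adjusted p = 0.419).

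Among the 6 exportins, 4 rose and 0 fell, beside 20.5% and 29.2% of all genes tested. Xpot, the exportin of transfer RNA, read 2566 on ND and 3933 and 4505 on HFD, 1.64-fold higher (log2 0.71 ± 0.12, adjusted p = 0.000293), and its 2 other probe sets past the filter read more, at log2 1.15 and 1.20. Xpo1 (CRM1), the receptor for leucine-rich export signals, read 5582, 7610 and 8428, 1.43-fold higher (log2 0.52 ± 0.10, adjusted p = 0.000782). Its second probe set gave a log2 difference of 0.23 and no call (adjusted p = 0.104). Xpo4 read 361.8, then 695.6 and 724.2 (1.92-fold, adjusted p = 0.000313), though its second brightest probe set, at 319.1, 283.8 and 333.8, did not differ in a constant direction (log2 -0.05), and another, dimmer still, was higher (log2 0.70). Xpo7 read 2880, 3653 and 3821 (1.30-fold, adjusted p = 0.0117). Xpo5, the exportin of microRNA precursors, read 462.5, 590.2 and 627.1 (log2 0.38 ± 0.16, adjusted p = 0.0576), while its second probe set read 182.8, 422.3 and 420.4 (log2 1.13) and was called (adjusted p = 0.00144). Xpo6, which exports actin, read 2056, 2129 and 2098 (log2 0.04 ± 0.12, adjusted p = 0.803). Among the brightest probe sets, the widest gaps in this group were those of Xpo4 and Xpot, and Xpo6 was nearly level on the 3 arrays. The second probe sets of Xpo4 (log2 -0.05) and Xpo5 (log2 1.13) did not keep this order.

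**Figure D3:**
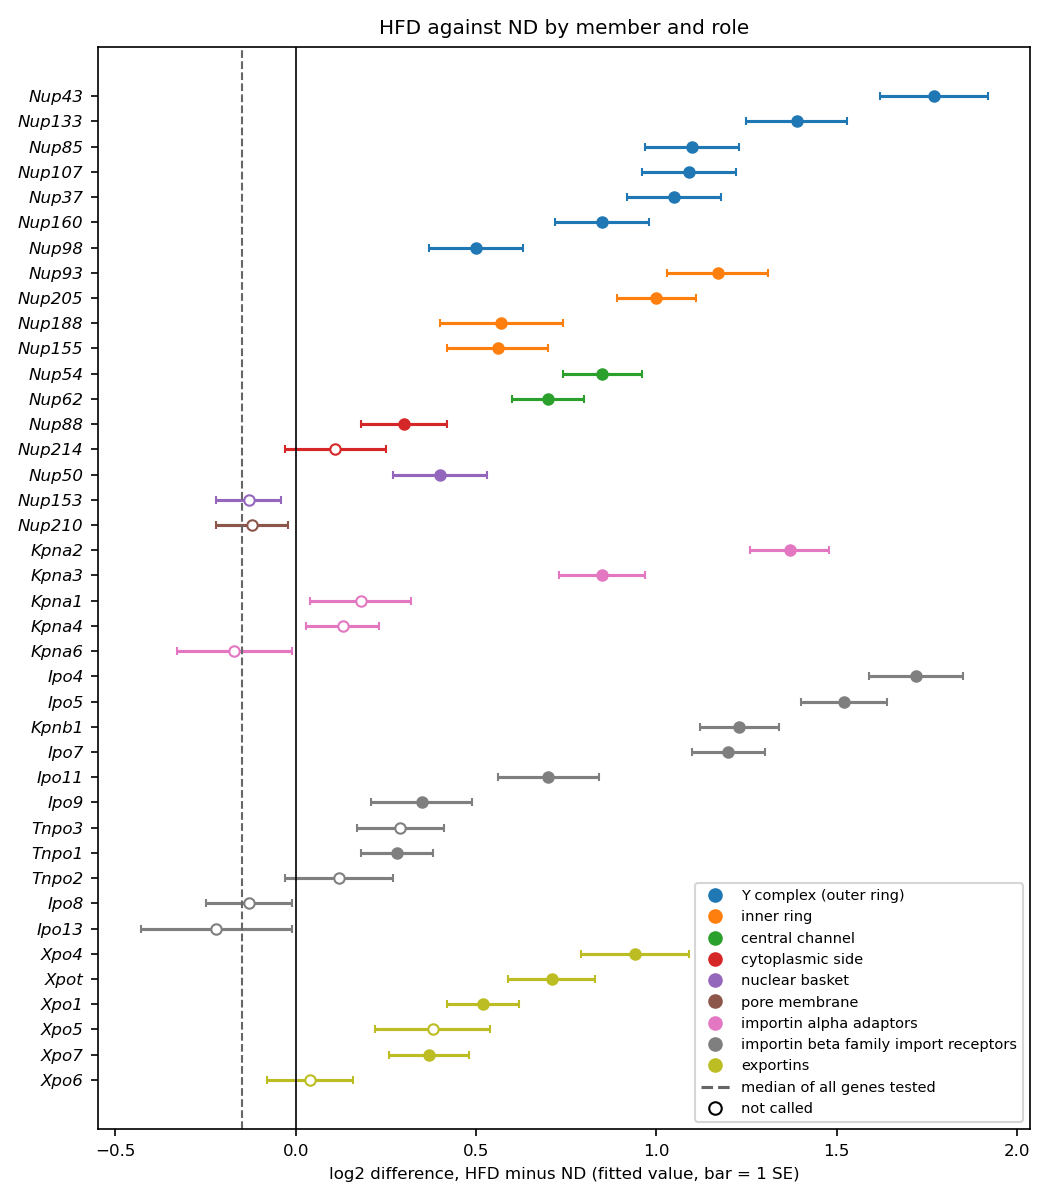
Fitted log2 difference (HFD minus ND) of each member past the filter, coloured by role, with bars of 1 SE; filled points were called at an adjusted p under 0.05, open points were not, and the dashed line is the median of all genes tested at -0.15. All Y complex, inner ring and central channel genes are filled and positive, while Nup153, Nup210, Kpna6, Ipo8 and Ipo13 lie just below 0.

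Of the 42 members, 33 had more than 1 probe set, which gives a second reading of the same transcripts on the same arrays. The 28 members that rose had 36 other probe sets past the filter, on 21 genes, and 33 of these read higher on both HFD arrays. Their log2 differences ran from -0.69 to 1.72 with a median of 0.88. The 3 exceptions belonged to Ipo11, Xpo4 and Nup54. Nup54's dim probe set read 110.9 on ND and 211.8 and 43.97 on HFD, apart from 3 brighter ones at log2 0.57 to 1.0. For the members not called, 15 other probe sets on 9 genes ran from -0.73 to 1.13, and 11 of them read higher on both HFD arrays. Over all genes tested, the brightest probe set read higher on both HFD arrays for 35.8%. That share was not computed over further probe sets, and the 36 belong to genes called higher on these same arrays.

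**Figure D4:**
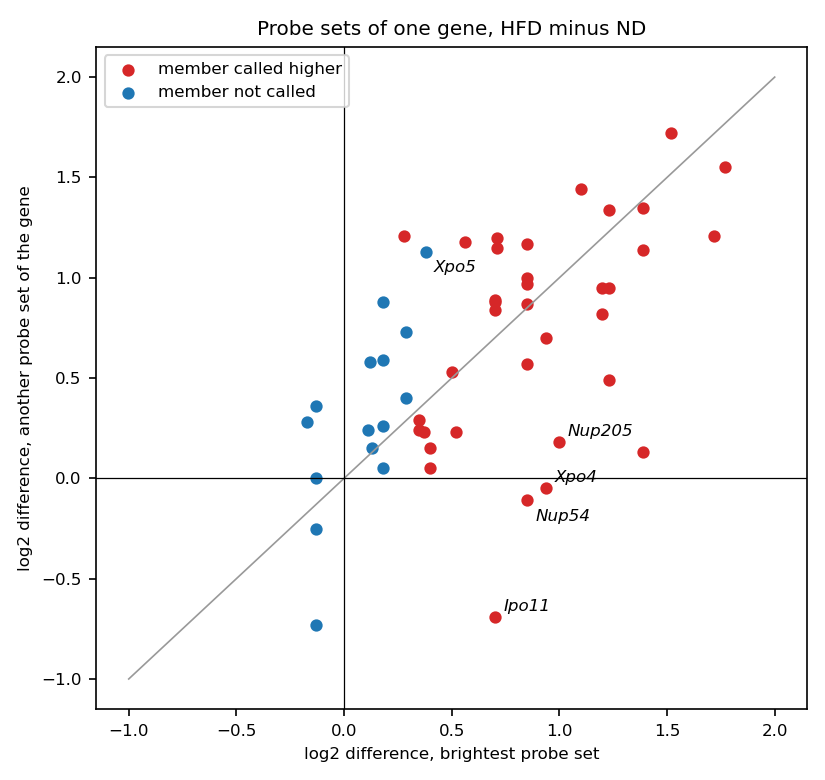
Each point is a further probe set past the filter, with the log2 difference (HFD minus ND) of the gene's brightest probe set on the x axis and its own on the y axis; red marks members that rose, blue members not called, and the grey line is equality. Of the 36 red points, 33 come from probe sets above ND on both HFD arrays, and the Ipo11 point at -0.69 is the lowest of them.

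Genes of the same pathway outside the symbol rule were mostly higher too. Of 14 genes past the filter on a list of other nuclear pore proteins, 9 rose and 0 fell (median 0.44), beside 20.5% and 29.2% of all genes tested. That list also takes in Senp1, Senp2 and Mcm3ap, whose proteins associate with the pore, and of these Senp2 rose. Seh1l, a further Y complex subunit, read 763.3 on ND and 1729 and 1821 on HFD (2.29-fold, adjusted p = 1.15e-05), but its second probe set gave log2 0.27 and no call (adjusted p = 0.137). Ndc1, which anchors the pore in the membrane, read 158.3, 398.5 and 352.3 (2.23-fold, adjusted p = 0.000422). Rae1, an RNA export factor at the pore, read 1936, 3608 and 3764 (1.90-fold), with its second probe set at log2 -0.16, and Tmem33 read 1912, 3267 and 3566 (1.78-fold). The count of 9 became 5 when probe sets were averaged and 5 with the second brightest probe set.

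Of 14 genes of the Ran cycle and other transport factors past the filter, 7 rose and 2 fell (median 0.40), beside the same 20.5% and 29.2%. Rcc1, the exchange factor that loads Ran with GTP in the nucleus, read 212.3 on ND and 1076 and 1308 on HFD, 5.24-fold higher (log2 2.39 ± 0.16, adjusted p = 1.91e-07). Ranbp1, which helps GTP hydrolysis on Ran in the cytoplasm, read 3790, then 12470 and 13900 (3.46-fold, adjusted p = 2.36e-08). Ran itself read 12490, then 24830 and 26340 (2.05-fold, adjusted p = 2.84e-07), and Cse1l, the exportin that returns importin alpha to the cytoplasm, read 2412, then 4804 and 5402 (2.10-fold, adjusted p = 7.63e-06). All 4 lay clear of ND on both HFD arrays. Rangrf, a Ran-binding factor, read 267.1, 1622 and 2149 (6.62-fold), and Heatr3 read 595.2, 1389 and 1457 (2.35-fold). Rangap1, the GTPase-activating protein of Ran, read 1127, 1098 and 1169 (log2 0.01 ± 0.13, adjusted p = 0.966), while its second probe set was called higher (log2 0.57, adjusted p = 0.0118). Ranbp10 (1516, 1070 and 963.5) and Ranbp9 (5629, 4516 and 4312), adaptor proteins that share the Ran-binding name, fell by 0.57 and 0.35 on the log2 scale. The Ranbp10 call ended with the second probe set (log2 -0.08, adjusted p = 0.791) and with probe sets averaged (log2 -0.33, adjusted p = 0.0904), and the Ranbp9 call ended without a variance trend (adjusted p = 0.0962).

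In messenger RNA export, 11 of 18 genes past the filter rose and 1 fell (median 0.40), beside 20.5% and 29.2% of all genes tested. Alyref, an adaptor of the export complex, read 2732, 4963 and 4809 (1.78-fold, second probe set at log2 -0.06), and Eny2 read 944.9, 1489 and 1722 (1.68-fold). The subunits of the THO complex, Thoc3 and Thoc1, read 1003, 1625 and 1775 (1.68-fold) and 1673, 2602 and 2887 (1.63-fold). Ddx19b, a helicase that releases messenger RNA at the pore, fell by 0.53 on the log2 scale (799.6, 594.0 and 506.8, adjusted p = 0.0149), but its second probe set read higher (log2 0.85, adjusted p = 0.0479). Gle1, the cofactor of that helicase and a member of both this list and that of other pore proteins, read 652.2, 523.2 and 593.0 (log2 -0.22 ± 0.16, adjusted p = 0.265).

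**Figure D5:**
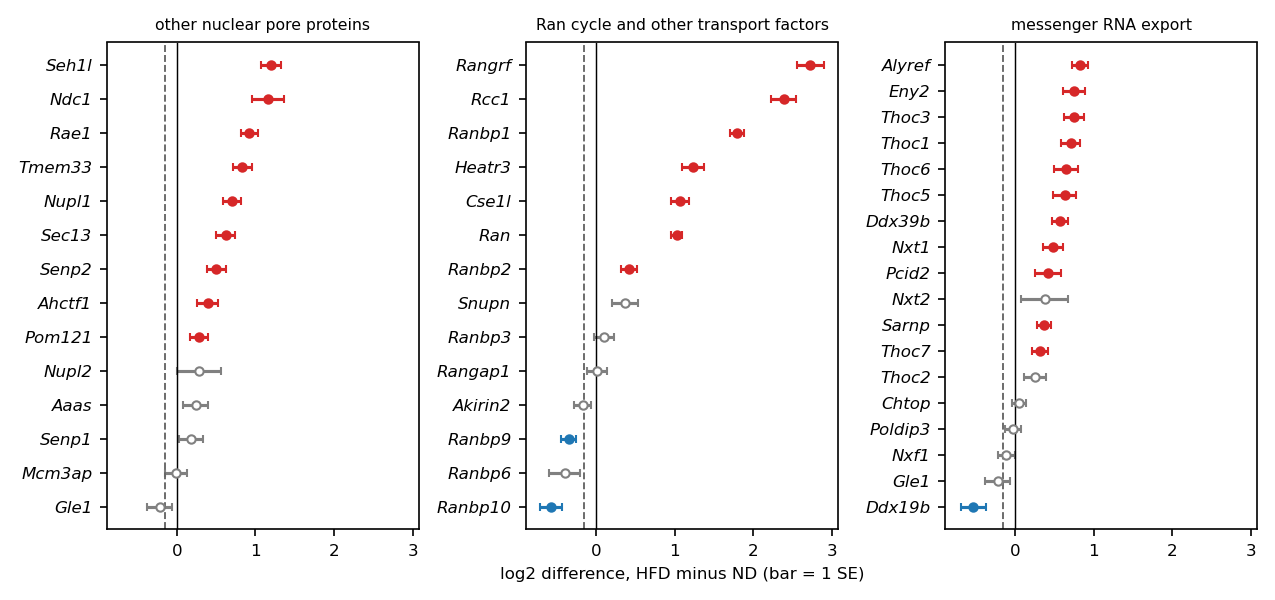
Log2 difference (HFD minus ND) with bars of 1 SE for the genes past the filter in 3 related lists: other nuclear pore proteins (14), the Ran cycle and other transport factors (14) and messenger RNA export (18). Red points rose, blue points fell and open grey points were not called; Rangrf at 2.73 and Rcc1 at 2.39 lie farthest right.

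The fit estimated the spread from the HFD arrays alone and assumed that the lone ND array varies like them, so handling, strain or cell makeup particular to the ND sample cannot be told apart from diet. Of the 28 members that rose, 17 were called higher under each of 10 alternative settings with a test, and the other 11 (Ipo9, Ipo11, Nup50, Nup88, Nup98, Nup188, Nup205, Tnpo1, Xpo1, Xpo4 and Xpo7) lost the call under at least 1. Among the 17, Kpna2, Nup37, Nup93, Nup107 and Nup160 had 1 probe set past the filter. For these genes, averaging probe sets or taking the second brightest reused the same reading.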

How the data were processed

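Transcripts were measured with 3 Affymetrix mouse arrays (1 ND, 2 HFD), hybridised with biotin-labelled total RNA, per the labels' protocols. The values deposited by the authors are linear intensity per probe set. GCOS, Affymetrix's array software, is named per the submitters' processing notes. Its version, algorithm and background correction: not given in the sources used here. The mean of each array without the outer 2% of probe sets on either side was 500.0, a scaling under which a large change of bright transcripts moves the rest the other way. With so few arrays precision is low.

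Besides 64 controls there were 45037 probe sets: the platform annotation gave a single symbol to 34945 (used here), several to 932 and none to 9160. All 42 members' symbols equalled the RefSeq symbol of their Entrez identifier (GRCm38.p6). Fold changes are on the log2(intensity + 17.65) scale (offset from the 25th percentile over the arrays), which understates the change of dim genes. Genes whose brightest probe set averaged over 71.4 (the median probe set) were kept, leaving 10341. That filter takes 2 HFD arrays of 3, so a dim gene high in HFD passes more readily. The brightest probe set was chosen by the same mean, which favours a probe set that is higher in HFD. For Kpnb1, Nup50 and Kpna1 another probe set was brighter on ND (2421, 1401 and 968.0). Its log2 difference was smaller, at 0.49, 0.05 and 0.05. The diets were compared with limma 3.58.1 (lmFit, eBayes with a trend) in R 4.3.3, with 1 residual and 11.69 prior degrees of freedom, and Benjamini-Hochberg adjustment over all genes; the script was tested on simulated data. Tables and figures were made with pandas 2.3.3, numpy 2.4.6 and matplotlib 3.10.9 in Python 3.11.15.

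Members, roles and lists were chosen with earlier results of these data known. Values on every array were given for up to 12 members per direction with the largest smaller difference, the extremes of each role, Kpna2, Kpnb1, Xpo1, Xpot, Nup98, Nup153 and Nup210, and the other members; of each related list, for up to 4 genes per direction, and for Ran, Rcc1, Rangap1, Ranbp1 and Cse1l. Nutf2 was not analysed here. Alternatives covered normalization, offset, filter, probe sets, variance model and each HFD array left out.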

Additional observations from a re-analysis of the deposited data

How the results depend on the processing

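The count of members that rose ran from 21 with the second brightest probe set (16.4% of all genes rose) to 30 with arrays centred on the median (23.3%). The count at least 1.5-fold higher on both HFD arrays ran from 18 to 20. Of the 28 members that rose under the main setting, 21 had a second probe set past the filter. The others kept their only one when the second brightest was taken. Of all genes, 9.14% rose with no filter (24 members), 16.0% with no variance trend (22), 21.2% under quantile normalization (27) and 28.7% under the 75th percentile filter (28). Members called lower numbered 0 except under quantile normalization, where 1 (Nup153) was. The members' median of 0.56 became 0.63 both with arrays centred and under a 75th percentile filter, and that of importins and exportins (0.38) became 0.44 with arrays centred and 0.43 with probe sets averaged. Leaving out an HFD array leaves 1 array against 1, so limma could not be fitted: without HFD 2 the members' median was 0.52 and 19 were at least 1.5-fold higher, and without HFD 1 these were 0.61 and 22. The single call on the cytoplasmic side (Nup88) became 0 under quantile normalization, no filter, averaged probe sets, the second brightest probe set and no variance trend. That of the nuclear basket (Nup50) became 0 with averaged probe sets, the second brightest probe set and no variance trend, and the exportins' 4 became 2 with the second brightest probe set. Other pore proteins called higher became 5 with averaged probe sets and 5 with the second brightest. Ran cycle genes called lower became 1 with averaged probe sets, the second brightest probe set and no variance trend. Messenger RNA export genes called higher became 7 with no variance trend, and lower became 0 with no filter, averaged probe sets, the second brightest probe set and no variance trend. With the second brightest probe set the direction turned for Ipo11 (-0.69), Xpo4 (-0.05), Rae1 (-0.16), Alyref (-0.06), Kpna6 (0.28) and Ddx19b (0.85), and Nup153 lay at 0.00. With probe sets averaged it turned for Kpna6 (0.06) and Ddx19b (0.16). The cause was not tested beyond each setting's construction. No paired analysis was possible because ND has 1 array. Detection above background could not be read from the values.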
